A study of Homo sapiens with 8 samples.

Results

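INSIG1, INSIG2, SREBF1, SREBF2, SCAP, MYLIP, STARD4 and ABCA1 encode proteins that sense or set the sterol level of a cell. Their messenger RNA was followed in IMR32, a human neuroblastoma cell line in which MYCN is amplified, after 6 h of CR31B or of its vehicle. CR31B is a rocaglate, a compound class that clamps the RNA helicase eIF4A onto messenger RNA and so blocks translation initiation. The CR31B group received the compound at its IC50 (the labels give no concentration), and the vehicle group received 0.1% DMSO. Each group had 4 libraries of polyadenylated RNA, and all 8 came from cells labelled wild type, with no other allele or agent named. The 8 genes were chosen by symbol, with measured values of this same CR31B and DMSO contrast already known, so their values are given here as a description and no test is drawn from them. Each symbol matched 1 of the 58787 gene rows of the count table. A low count kept ABCA1 out of the fits, and the other 7 genes were fitted.

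Replicate 1 of each group was read paired-end, and replicates 2 to 4 were read single-end. The CR31B minus DMSO difference of pair 1 ran opposite to that of pairs 2 to 4 for INSIG1, SREBF2 and STARD4. In the lists of related genes read below, pair 1 took the opposite sign for every gene called in the single-end libraries. Values of pair 1 are therefore given apart from those of pairs 2 to 4, under the labels as deposited. Library totals ranged from 43687828 to 64715535 counts. The cells are labelled as neuroblasts. Of 11 adrenergic neuroblast markers, 10 had a mean of at least 5 CPM (each count divided by its library size and TMM factor), and their summed level ranged from 5757 to 8041 CPM with CR31B and from 5441 to 7752 CPM with DMSO. Among the 6 single-end libraries, 5 of the 11 were called higher and 4 lower. The fit of these libraries called 23.8% of all genes tested higher and 17.6% lower. The 8 glial markers summed to at most 8.63 CPM in any library, with GFAP and SOX10 at 0 and 1 called lower. The 8 immune and endothelial markers summed to at most 3.68 CPM, with CD68, CD3E and MS4A1 at 0 and 3 called lower. The 5 epithelial markers summed to at most 0.253 CPM, with KRT5 and KRT14 at 0 and 0 called. In every library, 7 of the 8 glial, 7 of the 8 immune and endothelial and all 5 epithelial markers stayed under 1 CPM. At such levels a gene may stay untested, so the lack of a call says nothing of change. Of the 10 mesenchymal markers, 6 had a mean of at least 5 CPM (FN1, COL1A1, YAP1, SNAI2, TWIST1 and THY1), and PRRX1 was at 0. The 10 summed to between 233.2 and 286.6 CPM, and 0 of them were called. The part of these markers in the results was not tested.

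SREBP transcription factors are made as precursors in the membrane of the endoplasmic reticulum, where the escort protein SCAP binds them. When sterols are low, SCAP carries the precursor to the Golgi, the proteases encoded by MBTPS1 and MBTPS2 release its active part, and genes of sterol uptake and synthesis are switched on. When sterols are high, the INSIG proteins hold SCAP back, and INSIG1 is itself a target of SREBP, which closes a feedback loop. The opposite signal, an excess of oxysterols, acts through the LXR receptors, which raise the exporter ABCA1 and the ubiquitin ligase MYLIP, also called IDOL, which marks lipoprotein receptors for degradation. STARD4 moves cholesterol between membranes.

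SREBP binds sterol regulatory elements close to the start of its targets, usually beside a site of the factor NF-Y, and these promoters are therefore printed. All 8 genes matched a window of the RefSeq promoter table (GRCh38.p14), which spans 250 bases before to 50 bases after each start. Shown 5′ to 3′ are the SREBF and INSIG paralogue pairs and STARD4, each ending before the first annotated transcript start. Capitals mark a match to the sterol element TCACNCCAC or to the NF-Y box CCAAT on either strand.

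INSIG1 promoter, chr7:155297628-155297775, plus strand: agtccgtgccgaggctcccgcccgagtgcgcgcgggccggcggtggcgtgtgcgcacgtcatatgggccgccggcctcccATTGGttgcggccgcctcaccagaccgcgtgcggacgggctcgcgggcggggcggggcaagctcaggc

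INSIG2 promoter, chr2:118088221-118088451, plus strand: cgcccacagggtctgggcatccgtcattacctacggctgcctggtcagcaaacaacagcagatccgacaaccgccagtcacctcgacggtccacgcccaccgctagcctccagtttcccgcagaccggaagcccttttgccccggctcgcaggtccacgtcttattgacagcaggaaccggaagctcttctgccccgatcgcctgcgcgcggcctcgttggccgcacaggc

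SREBF1 promoter, chr17:17837003-17837236, minus strand: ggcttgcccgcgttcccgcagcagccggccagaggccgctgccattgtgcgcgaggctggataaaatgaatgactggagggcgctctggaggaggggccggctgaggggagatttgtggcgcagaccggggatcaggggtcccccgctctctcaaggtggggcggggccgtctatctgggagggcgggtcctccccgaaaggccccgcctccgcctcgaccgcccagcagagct

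SREBF2 promoter, chr22:41832855-41833078, plus strand: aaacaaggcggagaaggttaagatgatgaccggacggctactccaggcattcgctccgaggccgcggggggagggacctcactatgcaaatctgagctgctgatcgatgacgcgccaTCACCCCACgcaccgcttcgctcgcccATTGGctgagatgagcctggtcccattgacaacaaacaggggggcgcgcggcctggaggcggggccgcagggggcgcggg

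STARD4 promoter, chr5:111512591-111512785, minus strand: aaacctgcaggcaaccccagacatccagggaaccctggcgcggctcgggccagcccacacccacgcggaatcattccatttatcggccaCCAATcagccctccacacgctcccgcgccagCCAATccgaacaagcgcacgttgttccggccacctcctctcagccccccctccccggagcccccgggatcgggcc

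The sterol element letters were found in 1 of the 8 windows, that of SREBF2, as TCACCCCAC starting 133 bases before the RefSeq start. An NF-Y box on the opposite strand followed at position -106. Of 35116 RefSeq promoter windows of the same length, 1.13% held the sterol element on either strand. The NF-Y box was in 4 of 8 windows (INSIG1, SREBF2, STARD4 and MYLIP) and in 34.6% of all windows. INSIG1 had it at -170, STARD4 at -161 and -130, and MYLIP at -109 and -68. The E-box CACGTG was in 3 of 8 windows (INSIG1, SCAP and ABCA1) and in 7.26% of all. The Sp1 box GGGCGG was in 8 of 8 and in 45% of all, and the ATF4 composite TGATGNAAN in 0 of 8 and in 3.61% of all. Matches to different motifs overlapped in 0 places in the 8 genes' windows. In the 250 bases before the start, the GC content was 78.4% for INSIG1, 65.6% for INSIG2, 71.2% for SREBF1 and 67.2% for SREBF2, against a median of 58% over all windows.

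INSIG1 (ENSG00000186480, chr7:155297776-155310235, plus strand, GRCh38) encodes the retention protein that SREBP itself induces. With DMSO its level was 110 CPM in replicate 2, 95.2 in replicate 3 and 85.4 in replicate 4. With CR31B it was 32.4, 22.3 and 28.9 CPM in the same order. All 3 CR31B libraries lay below all 3 DMSO libraries, without overlap. In pair 1 the order was the other way round: 120 CPM with CR31B and 34.1 CPM with DMSO. Each library of pair 1 thus lay near the single-end libraries of the opposite label. The single-end means were 27.9 ± 5.15 CPM with CR31B and 96.8 ± 12.3 with DMSO (SD, n = 3), and the fitted log2 difference was -1.80 ± 0.13 (SE), a level 3.48-fold lower. By numbered pair the log2 differences were 1.82, -1.76, -2.09 and -1.56 for pairs 1 to 4. Over all 8 libraries, with sequencing layout in the fit, the log2 difference was -1.04 ± 0.60. The means were then 50.9 ± 46.2 CPM with CR31B and 81.1 ± 32.9 with DMSO (SD, n = 4), and the groups overlapped. In bulk RNA, fewer cells of a type and less RNA per cell cannot be told apart, and this holds for every level given here.

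INSIG2 (ENSG00000125629, chr2:118088452-118110997, plus strand) encodes the paralogue with the same retention role, which is not known as an SREBP target in the way INSIG1 is. It stood at 19.5, 18.5 and 19.1 CPM in DMSO replicates 2 to 4 and at 21.1, 17.0 and 20.1 CPM in the matching CR31B libraries. The 2 groups overlapped. Pair 1 had 22.2 CPM with CR31B and 21.6 CPM with DMSO. The fitted difference in the single-end libraries was 0.03 ± 0.09 on the log2 scale. Across all 8 libraries INSIG2 ranged from 17.0 to 22.2 CPM, whereas INSIG1 ranged from 22.3 to 120 CPM.

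**Figure D1:**
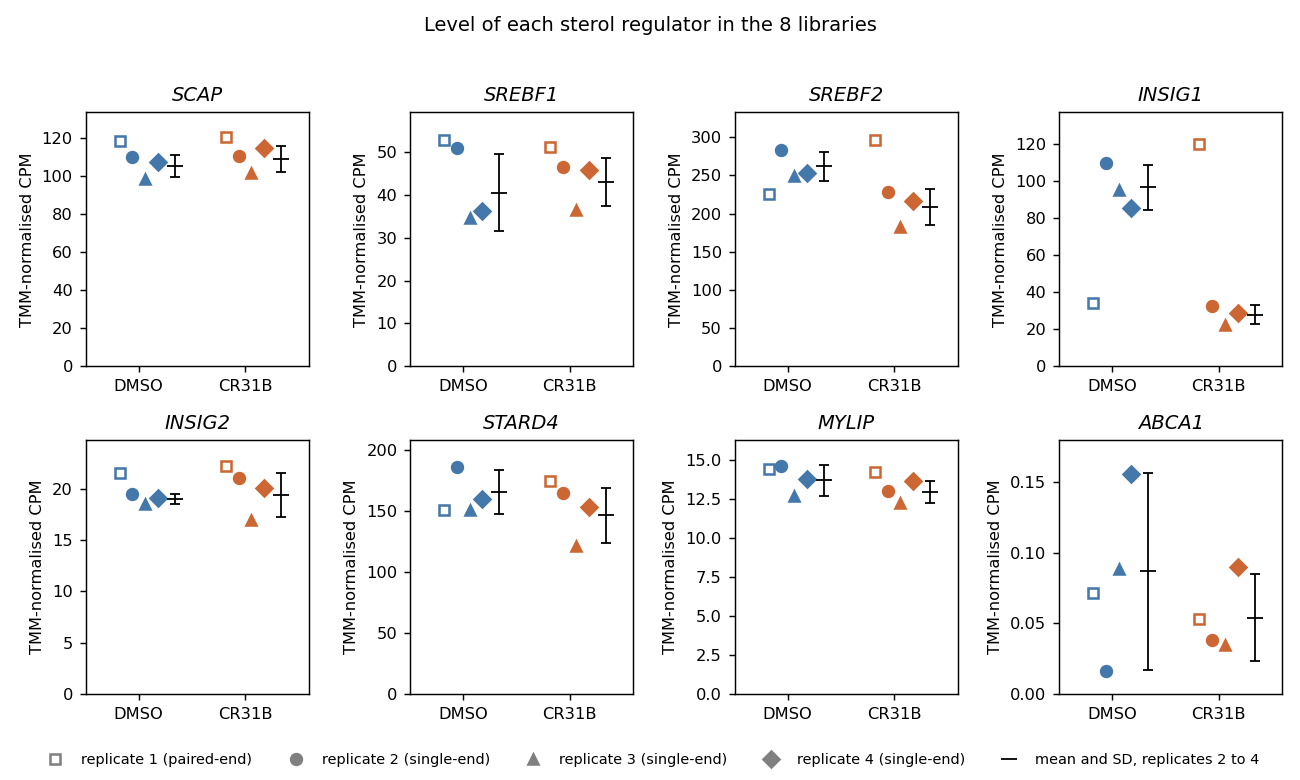
Level of each of the 8 genes in every library, in TMM-normalised CPM (vertical axis, starting at 0), by treatment. Squares are the paired-end replicate 1 libraries, filled symbols the single-end replicates 2 to 4, and bars the mean and SD of replicates 2 to 4. INSIG1 lies at 22.3 to 32.4 CPM in the 3 single-end CR31B libraries and at 85.4 to 110 CPM in the 3 single-end DMSO libraries, with both squares on the opposite side, and ABCA1 stays under 0.16 CPM.

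SREBF2 (ENSG00000198911, chr22:41833079-41907308, plus strand) encodes SREBP2, the form that mainly drives cholesterol synthesis and uptake. Its level was 284, 249 and 254 CPM in DMSO replicates 2 to 4. It was 228, 183 and 216 CPM in CR31B replicates 2 to 4, below every single-end DMSO library. In pair 1 the CR31B library held 297 CPM and the DMSO library 226 CPM. The single-end means were 209 ± 23.4 CPM with CR31B and 262 ± 18.8 with DMSO (SD, n = 3). The log2 difference was -0.33 ± 0.08, or 1.25-fold lower, and by pair it was 0.39, -0.32, -0.45 and -0.23. Over all 8 libraries it was -0.15 ± 0.14.

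SREBF1 (ENSG00000072310, chr17:17810399-17837002, minus strand) encodes the SREBP1 isoforms, which drive fatty acid synthesis. Its DMSO libraries held 50.8, 34.5 and 36.3 CPM in replicates 2 to 4, and its CR31B libraries 46.5, 36.5 and 45.8 CPM. These single-end groups overlapped, and replicate 2 was the highest of replicates 2 to 4 in both. Pair 1 held 51.1 CPM with CR31B and 52.8 CPM with DMSO. The log2 difference in the single-end libraries was 0.08 ± 0.14, with pairs 2 to 4 at -0.13, 0.08 and 0.34. Exons of RAI1 on the other strand cover 6.92% of the SREBF1 exon length, and those of SREBF2-AS1 cover 3.71% of SREBF2. The name of the deposited table holds the word reverse, but the strand setting of the counting is not otherwise given in the sources used here, so whether reads in those stretches were told apart by strand is not known.

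SCAP (ENSG00000114650, chr3:47413694-47477126, minus strand), the escort of both SREBPs, ranged from 98.6 to 120 CPM across the 8 libraries. It stood at 110, 98.6 and 107 CPM in DMSO replicates 2 to 4 and at 111, 102 and 115 CPM with CR31B. Pair 1 held 120 CPM with CR31B and 118 CPM with DMSO. The single-end log2 difference was 0.05 ± 0.06, and the groups overlapped.

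STARD4 (ENSG00000164211, chr5:111496033-111512590, minus strand), the cholesterol transporter, had 186, 151 and 160 CPM in DMSO replicates 2 to 4. With CR31B it had 164, 121 and 153 CPM, lower within each of the 3 pairs, while the groups as a whole overlapped. In pair 1 the CR31B library held 175 CPM and the DMSO library 151 CPM. The log2 difference was -0.18 ± 0.11 without the pairing, which left STARD4 uncalled. With the replicate number as a block the difference was -0.18 as well and STARD4 was called lower. By pair the log2 differences were 0.21, -0.18, -0.32 and -0.06.

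MYLIP (ENSG00000007944, chr6:16129125-16148248, plus strand), the ligase that removes lipoprotein receptors, had 14.7, 12.7 and 13.8 CPM in DMSO replicates 2 to 4. With CR31B it had 13.0, 12.2 and 13.7 CPM, and the groups overlapped. Pair 1 held 14.2 CPM with CR31B and 14.4 CPM with DMSO. The single-end log2 difference was -0.08 ± 0.08. ABCA1 (ENSG00000165029, chr9:104781002-104928237, minus strand), the cholesterol exporter, had 3, 2, 2 and 4 raw counts in CR31B replicates 1 to 4 and 3, 1, 6 and 8 in the DMSO replicates. At this depth a count of 0 would allow up to 3 counts, most of these libraries lie near that limit, and no fold is given.

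**Figure D2:**
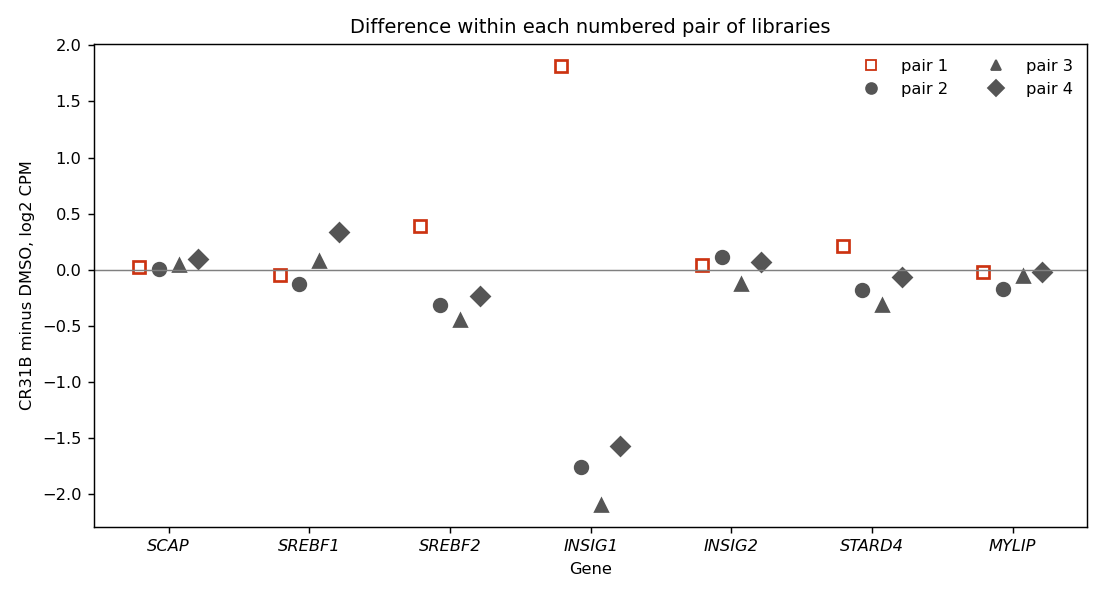
CR31B minus DMSO difference in log2 CPM (vertical axis) for the 7 fitted genes, one symbol for each numbered pair of libraries. Open squares are pair 1 (paired-end) and filled symbols pairs 2 to 4 (single-end). INSIG1, SREBF2 and STARD4 have pair 1 above 0 (1.82, 0.39 and 0.21) and pairs 2 to 4 below 0. The other 4 genes lie between -0.17 (MYLIP, pair 2) and 0.34 (SREBF1, pair 4).

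In the whole-table fit of the 6 single-end libraries, an adjusted p under 0.05 (edgeR, Benjamini-Hochberg over 16696 genes) called 2 of the 7 fitted regulators, INSIG1 and SREBF2, both lower. That fit called 41.3% of all genes tested, 23.8% higher and 17.6% lower. With the replicate block 3 of the 7 were called lower, beside 51.1% of all genes called in the blocked fit, 28.1% higher and 23.1% lower. Nothing is read from the regulators' counts against these shares. Upper quartile scaling moved the median log2 difference of all genes from -0.01 to -0.10 and turned the split from 3968 higher and 2933 lower to 3010 higher and 4509 lower. Total count scaling gave 3181 higher and 4194 lower. The 7 regulators had a median log2 difference of -0.08. Over all 8 libraries 0 of 7 were called, beside 0% of the 16518 genes tested, where 205 genes had an unadjusted p under 0.05 and DESeq2 also called 0, with 263 unadjusted. The difference of pair 1 against that of pairs 2 to 4 was called for 42.5% of genes, and among the regulators for the same 2. On the log2 scale pair 1 exceeded pairs 2 to 4 by 3.62 ± 0.26 for INSIG1 and by 0.72 ± 0.17 for SREBF2, against 0.02 ± 0.17 for INSIG2 and -0.03 ± 0.12 for SCAP. Pair 1 has 1 library per group, so the spread behind these errors comes from the single-end libraries. Nothing in the labels beyond the words biological replicates says how the cultures were separated, so errors and p-values measure the spread between these libraries. The part of layout, or of any handling that pair 1 shared, in its opposite course was not tested. Whether the treatment labels of pair 1 match its libraries was not tested either, and the direction of every pair 1 value given here rests on those labels.

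Levels of different genes were compared per exon length, as RPKM (CPM divided by exon length in kilobases). This length joins the exons of all annotated transcripts of a gene, 8030 bases for SREBF1 and 3650 for INSIG1. The main coding transcript is shorter, 4178 bases for SREBF1 and 3010 for INSIG1. The order of genes such as INSIG1 and SREBF1 with CR31B, and the size of ratios between genes, therefore depend on the length used. With DMSO in the single-end libraries SREBF2 was highest at 34.7 ± 2.48 RPKM, then STARD4 at 29.1 ± 3.20, INSIG1 at 26.5 ± 3.36 and SCAP at 16.4 ± 0.93 (SD, n = 3). STARD4 and INSIG1 overlapped in range, with STARD4 above INSIG1 within each of these libraries, while SREBF2 lay above both. SREBF1 at 5.05 ± 1.12, INSIG2 at 4.81 ± 0.13 and MYLIP at 4.52 ± 0.33 RPKM overlapped in range. By this measure INSIG2 lay above MYLIP within each of these libraries. ABCA1 was under 0.014 RPKM. With CR31B the order was SREBF2 (27.7 ± 3.10), STARD4 (25.7 ± 3.96), SCAP (16.9 ± 1.03), INSIG1 (7.64 ± 1.41), SREBF1 (5.35 ± 0.70), INSIG2 (4.91 ± 0.54) and MYLIP (4.27 ± 0.24 RPKM). INSIG1 had thus moved from above SCAP to below it, with no overlap between INSIG1 and SCAP in either group. The ranges of SREBF2 and STARD4 overlapped with CR31B, but SREBF2 lay above STARD4 within each single-end library of both groups.

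The proportion of the partners to each other moved with INSIG1. INSIG1 stood at 6.11, 5.57 and 4.84 times INSIG2 in DMSO replicates 2 to 4, by RPKM, and at 1.67, 1.42 and 1.55 times INSIG2 with CR31B. Pair 1 was crossed, at 5.84 with CR31B and 1.71 with DMSO. Both INSIG genes together stood at 1.92 ± 0.19 times SCAP with DMSO and at 0.74 ± 0.09 times SCAP with CR31B (SD, n = 3). In pair 1 that ratio was 2.06 with CR31B and 0.80 with DMSO. Summed INSIG messenger RNA was therefore above SCAP in all 3 single-end DMSO libraries and below it in all 3 single-end CR31B libraries.

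The ratio of SREBF2 to SREBF1 was 5.93, 7.67 and 7.42 in DMSO replicates 2 to 4 and 5.21, 5.33 and 5.01 with CR31B. Pair 1 had 6.18 with CR31B and 4.55 with DMSO. Both SREBF genes together stood at 2.43 ± 0.14 times SCAP with DMSO and 1.94 ± 0.14 times with CR31B (SD, n = 3), and in pair 1 the ratio was 2.44 with CR31B and 1.98 with DMSO. These are ratios of messenger RNA, and the proteins were not measured here.

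**Figure D3:**
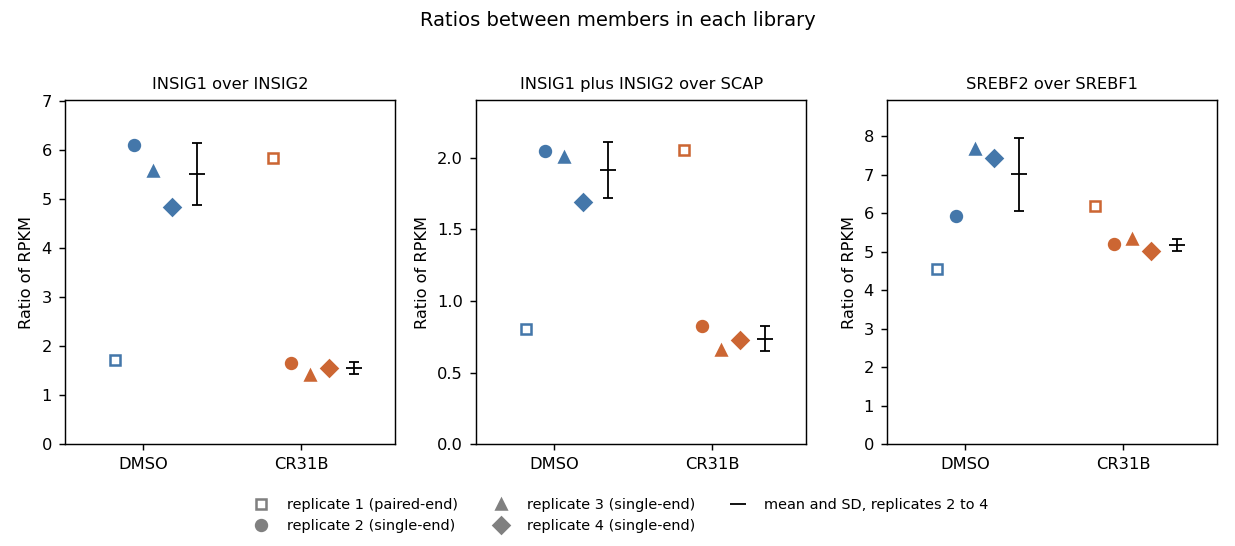
Ratios of RPKM between partner genes in each library (vertical axes, starting at 0): INSIG1 to INSIG2, both INSIG genes to SCAP, and SREBF2 to SREBF1. Squares are replicate 1, filled symbols replicates 2 to 4, and bars their mean and SD. The INSIG1 to INSIG2 ratio is 1.42 to 1.67 in the single-end CR31B libraries and 4.84 to 6.11 in the single-end DMSO libraries.

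The 8 transcripts differ in the length and base composition of their untranslated regions. From GENCODE 29, 1 coding transcript was chosen for each gene, and the values depend on that choice. For MYLIP the chosen transcript has 1666 bases and the joined exons 3033. Over 18821 genes the 5′ UTR had a median length of 190 bases and a median GC content of 63.7%. INSIG1 (211 bases, 78.2% GC), SREBF2 (166 bases, 76.5%), SREBF1 (185 bases, 78.9%) and MYLIP (198 bases, 76.3%) were at or above the 85th percentile of GC content. SCAP had 413 bases at 70.9% GC, and ABCA1 395 bases at 60.8%. INSIG2 had 206 bases at 51% GC, the 16.7th percentile, and STARD4 135 bases at 60%. The INSIG paralogues thus lie far apart in 5′ UTR GC content and the SREBF paralogues close together. The 3′ UTR of STARD4 (3856 bases) held 14 AUUUA pentamers, the element of many short-lived messages, that of ABCA1 7, that of INSIG1 (1968 bases) 6, and those of INSIG2 and SREBF2 4 each. SREBF1 held 1, and SCAP (144 bases) and MYLIP (133 bases) 0, against a median of 1 and a median 3′ UTR length of 871 bases. Per kilobase of 3′ UTR the counts were 3.63 for STARD4, 3.05 for INSIG1, 2.42 for SREBF2 and 2.34 for INSIG2. They were 2.11 for ABCA1 and 1.81 for SREBF1. These are features of 8 genes and no relation between them and the response was tested.

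SREBF2 and SREBF1 each carry a microRNA of the miR-33 family within the gene, MIR33A at chr22:41900944-41901012 and MIR33B at chr17:17813836-17813931, which are known to repress ABCA1. Both had 0 counts in all 8 libraries of polyadenylated RNA, which allows up to 3 counts in each.

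Among the 5 genes whose log2 CPM over the 8 libraries was most like that of INSIG1 were TMEM245 (Pearson r 0.997), ARL6IP1 (0.996) and CYB5R3 (0.995), out of 10797 genes with a mean of at least 5 CPM. INSIG1 forms 2 sets of 4 libraries, so such r values rest on that split, and they are a description. Their log2 differences were smaller than those of INSIG1. TMEM245 had 0.47, -0.47, -0.49 and -0.36 for pairs 1 to 4, ARL6IP1 had 0.42, -0.38, -0.44 and -0.29, and CYB5R3 had 0.36, -0.37, -0.51 and -0.41.

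Genes of the same pathways, some acted on by these regulators and some acting on them, were read from 5 lists in the single-end libraries. Their adjusted p-values are from edgeR over all genes. For the other fits named below, upper quartile scaling called 3010 of 16696 genes higher and 4509 lower, and total count scaling 3181 and 4194. The replicate block called 28.1% of all genes higher and 23.1% lower. HMGCS1, the synthase that makes HMG-CoA for the sterol pathway and a target of SREBP2, was at 222, 245 and 237 CPM in DMSO replicates 2 to 4 and at 146, 85.6 and 119 CPM with CR31B. It fell by 1.003 ± 0.148 on the log2 scale (adjusted p = 0.000392), and the groups did not overlap. Pair 1 had 244 CPM with CR31B and 117 CPM with DMSO.

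Of the 21 enzymes of cholesterol synthesis, 12 were lower, 0 higher and 9 not called, beside 17.6% lower and 23.8% higher among all genes. The list median was -0.43 against -0.01 for all genes. In pair 1 the list median was 0.44, and all 12 genes called lower were higher there. HSD17B7 (-1.25 ± 0.14, adjusted p = 8.06e-05) and MSMO1 (-1.05 ± 0.07, adjusted p = 2.83e-06), both of the later sterol steps, had the largest differences. Not every enzyme was called: FDPS (-0.03 ± 0.07, adjusted p = 0.758) and FDFT1 (0.03 ± 0.11, adjusted p = 0.860), which make farnesyl diphosphate and squalene, did not pass the test. CYP51A1 was listed at a mean of 0.319 CPM with 79.3% of its exon length shared with another gene on its strand, so its count is uncertain. With the replicate block 13 of the 21 enzymes were lower and 0 higher, beside 23.1% and 28.1% of all genes.

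Of the 16 fatty acid genes that SREBP1 drives, 15 were tested. Of these 6 were lower and 1 was higher, beside 17.6% lower and 23.8% higher among all genes. With both directions joined, 7 of 15 were called beside 41.3% of all genes, a share near that background. The median was -0.13. LPIN1, a phosphatidate phosphatase, had -0.63 ± 0.06 (adjusted p = 2.02e-05) and SCD, the stearoyl-CoA desaturase, -0.37 ± 0.09 (adjusted p = 0.00891). FASN, the fatty acid synthase, had -0.38 ± 0.12 (adjusted p = 0.0288, and 0.102 without DMSO replicate 4, where 3 genes of the list were called lower). ELOVL6, a fatty acid elongase, was higher by 0.44 ± 0.05 (adjusted p = 0.000103). With the replicate block 2 were higher and 9 lower, beside 28.1% and 23.1% of all genes.

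Of the 22 genes of sterol uptake and trafficking, 19 were tested, 6 rose and 5 fell, so that 11 of 19 were called beside 41.3% of all genes. The median was 0.05. With upper quartile scaling 4 rose and 7 fell, with total count scaling 5 and 7, and with the replicate block 7 and 5. VLDLR, a lipoprotein receptor that MYLIP also targets, had 21.1, 25.8 and 23.6 CPM in DMSO replicates 2 to 4 and 44.4, 62.6 and 56.8 CPM with CR31B (1.22 ± 0.12, adjusted p = 2.56e-05). Pair 1 had 29.3 CPM with CR31B and 61.4 CPM with DMSO. OSBPL6, of the oxysterol-binding protein family, rose by 1.27 ± 0.06 (adjusted p = 5.3e-07), and NCEH1, a cholesterol ester hydrolase, by 0.38 ± 0.09 (adjusted p = 0.00531). LRP8, a receptor of the same family as VLDLR, fell by 0.34 ± 0.05 (adjusted p = 0.000222), and SCARB1, the HDL receptor, by 0.32 ± 0.05 (adjusted p = 0.000317). GRAMD1C and CAV1 were among the 3 genes too low to be tested.

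Of the 18 genes of the LXR and efflux list, 14 were tested, 3 rose and 2 fell. Thus 5 of 14 were called beside 41.3% of all genes, a share near that background. The median was 0.02. With upper quartile scaling 3 rose and 4 fell, and with the replicate block 3 and 3. NR1H2, which encodes LXR beta, rose by 0.43 ± 0.07 (adjusted p = 0.000896), from 16.1 ± 0.99 to 21.6 ± 0.70 CPM (SD, n = 3). NR1H3, which encodes LXR alpha, stood at 1.52 CPM with DMSO and 1.78 CPM with CR31B (0.22 ± 0.20, adjusted p = 0.413). Of the partner receptors, RXRG rose by 0.97 ± 0.10 (adjusted p = 2.82e-05) and RXRA fell by 0.46 ± 0.06 (adjusted p = 0.000169). CYP7B1, an oxysterol hydroxylase, rose by 0.41 ± 0.05 (adjusted p = 0.000128), and the transporter ABCA2 fell by 0.42 ± 0.07 (adjusted p = 0.00107). ABCG1, the partner of ABCA1 in efflux, was too low to be tested, like APOC1, CYP46A1 and CH25H.

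All 27 genes of SREBP processing and degradation were tested, 6 rose and 8 fell, so that 14 of 27 were called beside 41.3% of all genes. The median was 0.03. With upper quartile scaling 3 rose and 12 fell, with total count scaling 4 and 10, and with the replicate block 9 and 8. MBTPS1, the first of the 2 Golgi proteases, was at 76.8, 69.2 and 70.5 CPM with DMSO and 54.8, 48.9 and 55.5 CPM with CR31B (-0.44 ± 0.07, adjusted p = 0.000379). MBTPS2, the second protease, was not called (0.06 ± 0.07, adjusted p = 0.497), and 13.4% of its exon length is shared with another gene on its strand. SEC24D, of the coat that carries SCAP to the Golgi, rose by 0.81 ± 0.06 (adjusted p = 3.89e-06). TRIB1, a ligase scaffold, rose by 0.84 ± 0.06 (adjusted p = 5.88e-06), and FBXW7, the ligase subunit that removes active SREBP, rose by 0.65 ± 0.06 (adjusted p = 2.54e-05). RNF145, a ligase of SCAP, fell by 0.42 ± 0.06 (adjusted p = 0.000186), and SPRING1, which supports the first protease, by 0.36 ± 0.06 (adjusted p = 0.001). In each of the 5 lists every gene called with TMM scaling and no block took the other sign in pair 1, and over all 8 libraries 0 were called.

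**Figure D4:**
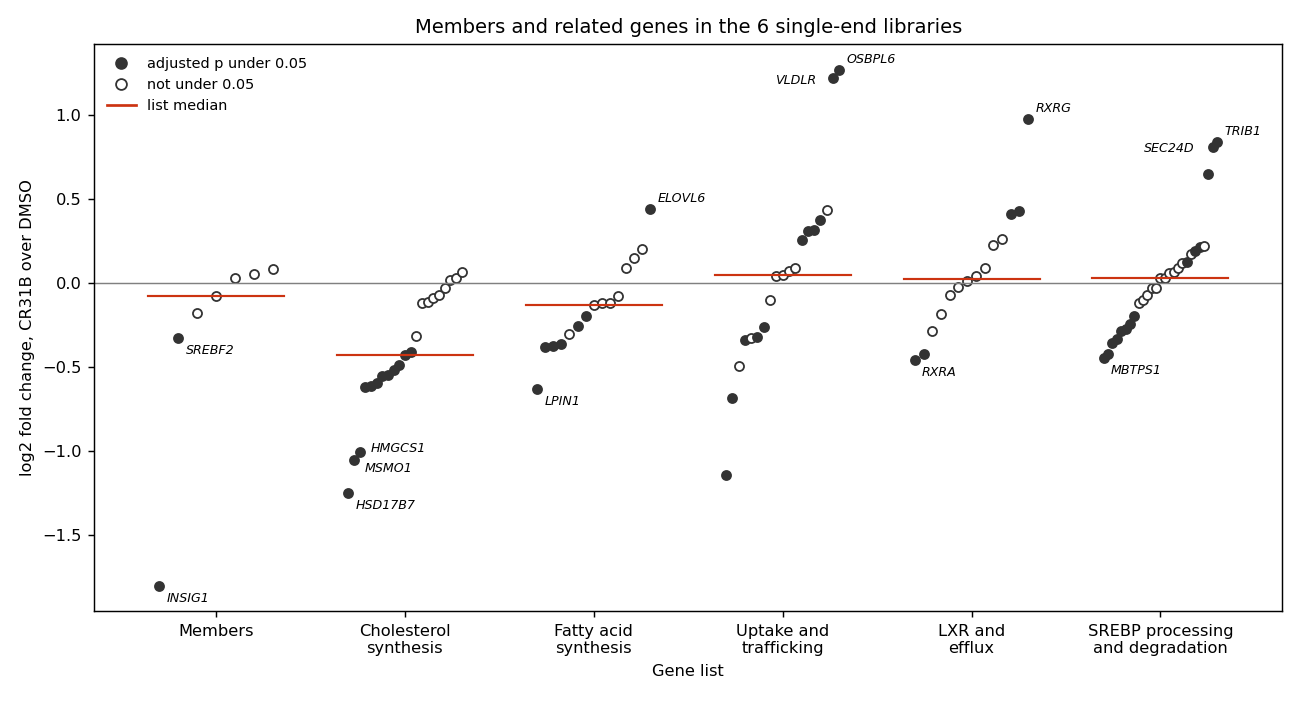
Fitted log2 difference between CR31B and DMSO in the 6 single-end libraries (vertical axis) for each tested gene of the 8 regulators and of the 5 lists, sorted within a list. Filled points have an adjusted p under 0.05, open points do not, and red lines are list medians. The cholesterol synthesis list has its median at -0.43, and the other lists lie between -0.13 and 0.05.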

How the data were processed

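Polyadenylated RNA of IMR32 cells was sequenced in 8 libraries. The authors deposited 1 table of raw counts per Ensembl gene, without normalisation. The submitters' processing notes name FastQC 0.11.7, STAR 2.7.2b, edgeR 3.36.0, limma 3.50.3 and the build GRCh38, without saying which made the counts, and the counting tool and its strand setting are not given in the sources used here. Per the labels' protocols, 250 ng of RNA was amplified for 15 PCR cycles with a kit named for small RNA. Counts include PCR duplicates, so depth covers counting error only. Of 58787 identifiers, 58515 were in GENCODE 29, the source of positions and exon lengths.

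Genes passing filterByExpr were scaled by TMM and fitted in edgeR 4.0.16 under R 4.3.3 with a two-sided quasi-likelihood test, with Benjamini-Hochberg adjustment over all tested genes and a threshold of 0.05. There were 3 fits: all 8 libraries with layout as a covariate, the 6 single-end libraries, and the interaction of treatment with layout. CPM are counts scaled to a common library total with TMM. RPKM divide these by the exon length joined over all annotated transcripts of a gene. Differences by pair use log2 CPM with a prior count of 1. The 8 genes and the 5 lists were chosen with earlier results of these data known. Other genes were named by role, or as up to 3 called genes per list and direction with the largest difference, at least 5 CPM and 1 direction in pairs 2 to 4, or as the 5 most like INSIG1. Some genes the rule names are not reported here and stay in the counts over lists. FDPS, FDFT1 and CYP51A1 were named after their values were seen. Alternatives were other scalings (RLE, upper quartile, total count) and filters, DESeq2 1.42.0, limma voom (limma 3.58.1), offsets on GC content and length, a replicate block and leaving out libraries. Replicate numbers paired the single-end libraries: deviations from group means correlated at 0.208, 0.388 and 0.157 for replicates 2, 3 and 4. No pair of libraries agreed within sampling noise (smallest mean chi-square per gene 7.20). The fits were tested on simulated data.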

Additional observations from a re-analysis of the deposited data

Results flagged for a closer look

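For 17 of 74 groups of 4 libraries examined (named genes and library totals), the paired-end replicate 1 library lay so far from the other 3 that its gap to the nearest of them took more of the group's whole range in CPM than Dixon's 95% critical value allows. Chance gives about 1 in 20 groups that were not chosen by their values. Most of these genes were chosen for a difference in the single-end libraries or for likeness to INSIG1, so the count of 17 is a description. Replicate 1 was the distant library in all 17. Within the CR31B group these shares of the range were INSIG1 (0.896), MSMO1 (0.932), OSBPL6 (0.832), LRP8 (0.926), SCARB1 (0.944), SEC24D (0.853) and TMEM245 (0.844). Within the DMSO group they were LPIN1 (0.925), OSBPL6 (0.9797), VLDLR (0.883), NCEH1 (0.899), SCARB1 (0.932), CYP7B1 (0.928), TRIB1 (0.944), SEC24D (0.836), RNF145 (0.890) and CYB5R3 (0.875). Among the 8 regulators only INSIG1, in its CR31B libraries, was one of these cases.

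The CR31B minus DMSO difference of pair 1 differed from that of pairs 2 to 4 for 27 of 35 named genes (edgeR interaction of treatment with layout, adjusted p under 0.05 over all genes), beside 42.5% of all genes. Most of the named genes were chosen for a call with 1 direction in pairs 2 to 4, so nothing is read from that count. The spread comes from the single-end libraries, since pair 1 has 1 library per group. Values are the log2 difference of pair 1 minus that of pairs 2 to 4. It was above 0 for INSIG1 (3.62), SREBF2 (0.72), HMGCS1 (2.07), MBTPS1 (1.01), HSD17B7 (2.51), MSMO1 (2.11), LPIN1 (1.12), SCD (0.82), LRP8 (0.80), SCARB1 (0.78), RXRA (1.02), ABCA2 (1.07), RNF145 (0.94), SPRING1 (0.68), TMEM245 (0.91), ARL6IP1 (0.79) and CYB5R3 (0.79). It was below 0 for NR1H2 (-0.98), ELOVL6 (-0.72), OSBPL6 (-2.49), VLDLR (-2.28), NCEH1 (-0.67), RXRG (-2.002), CYP7B1 (-0.95), TRIB1 (-1.62), SEC24D (-1.76) and FBXW7 (-1.32). The part of sequencing layout in these differences was not tested.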

How the results depend on the processing

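The 8 regulators were chosen with this contrast known and the alternatives refit the same libraries, so their calls are a description and no test. In the single-end libraries INSIG1 (log2 difference -1.92 to -1.66) and SREBF2 (-0.42 to -0.24) stayed lower and called in all 16 alternatives. Of 32 named genes, 30 kept their call, or stayed uncalled, in every alternative. The exceptions were FASN, whose value is given above, and STARD4. STARD4 was called lower with the replicate block (-0.18), with no filter (-0.19), with upper quartile scaling (-0.28, in log2), with offsets on GC content and length (-0.33) and with both offsets and block (-0.34). INSIG2 (-0.11 to 0.12), SREBF1 (-0.03 to 0.28), SCAP (-0.04 to 0.10) and MBTPS2 (-0.14 to 0.12) changed sign between alternatives and were called in 0 of them. Over all 8 libraries the number of genes called was 0 to 6920 when single libraries were left out: 6920 without CR31B replicate 1, 6906 without DMSO replicate 1, 6901 without both, and 0 in each of the others.

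In the single-end libraries upper quartile scaling called 3010 of all 16696 genes tested higher and 4509 lower. Offsets called 3421 higher and 3235 lower, and offsets with block 4188 and 4323. The replicate block called 4686 higher and 3854 lower, and no filter 4012 and 3314 of 29503 genes. The list counts below stand beside these. Leaving out 1 library gave 5582 to 6727 calls, 3350 to 3949 higher and 2202 to 2809 lower, and 6263 to 7468 interaction calls. The fatty acid list had 2 genes higher with no filter, 2 with the replicate block and 3 with offsets and block, and 10 lower with offsets and block. With 1 library left out it had 1 to 2 higher and 3 to 6 lower. The uptake list had 8 lower with offsets and 8 with offsets and block. The LXR list had 4 lower with upper quartile scaling, 4 with offsets and 4 with offsets and block. The processing list had 3 higher with upper quartile scaling. The cholesterol list had 11 to 13 lower with 1 library left out. The causes of these shifts were not tested. With 3 single-end libraries per group and 1 paired-end library per group, the depth of ABCA1 does not allow a difference to be seen.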
